A study of Mus musculus with 18 samples.

Results

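Chemokines and their receptors were followed through ischemic mouse cortex. The set was taken from the deposited table as the genes whose name begins with Ccl, Cxcl, Ccr, Cxcr or Ackr and a number, and 56 of 37319 genes are described. By class these were 22 CC ligands, 13 CXC ligands, 9 CC receptors, 6 CXC receptors, 4 atypical receptors and 2 pseudogenes named for Ccl19. All 56 were kept whatever their level. In 31 of them at least 1 group had a mean of 1 FPKM (fragments scaled by transcript length and by library total) or more, and these 31 are described by library. The other 25 reached at most 0.0271 to 1.53 FPKM in their highest library.

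Chemokines are small secreted proteins that direct the migration of leukocytes through G protein-coupled receptors. CXC ligands with an ELR sequence attract neutrophils through Cxcr2, ligands of Ccr2 attract monocytes, and further CC ligands attract monocytes and T cells. Other members, such as Cxcl12 and Cxcl14, are made in healthy tissue, and atypical receptors bind chemokines without classical signalling. In brain ischemia these genes are best known as products of glia, endothelium and invading myeloid cells.

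The mice were male C57BL/6J, 8 to 10 weeks old and 24 to 26 g. Every mouse received an adeno-associated virus, driven by the neuronal synapsin promoter, in the left lateral ventricle. The virus carried a short hairpin RNA against Tiparp (Tiparp arm, T) or a scramble hairpin (control arm, C), so no group was free of virus. After 4 weeks the mice had sham surgery or a transient occlusion of the middle cerebral artery (tMCAO), and cortex of the injured side was collected 24 h or 28 d later. The 6 groups of 3 libraries were Sham_C, Sham_T, R24h_C, R24h_T, R28d_C and R28d_T. No time after surgery was given for the sham groups, and no group was injured without virus. The values were FPKM, which carry no read totals, so the depth of each library is unknown. Labels do not say whether the 3 libraries of a group came from separate mice, and all p-values measure the spread between libraries.

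Tiparp was at 3.77 to 4.95 FPKM in the 6 sham libraries, 3.0 to 5.0 FPKM in R24h_T and 4.60 to 8.65 FPKM in R24h_C, and at 28 d both arms were at 3.59 to 4.46 FPKM. The arms overlapped at each time, so these whole-cortex values do not show a knockdown, and the arms are called by their labels. The cortical neuron markers summed to 483 to 1355 FPKM in every library, and striatal markers were present in all, at 41.1 to 383 FPKM. R24h_C3 held the lowest cortical sum and the highest striatal sum. It also had the highest level of the choroid plexus gene Ttr (1682 FPKM), and Sham_T1, Sham_T2 and R28d_T2 were the other libraries with Ttr above 100 FPKM (501.3 to 711.8 FPKM). The sums of 10 monocyte and macrophage markers were 18.6 to 21.8 FPKM in sham. R24h_T3 (48.2 FPKM), R28d_C1 (23.2 FPKM) and R28d_T3 (44.6 FPKM) stood nearer to sham than the other libraries of their groups, which had 97.1 to 319 FPKM at 24 h and 177 to 748 FPKM at 28 d.

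In sham cortex 46 of the 56 genes had a mean under 1 FPKM, and 7 were listed at 0 in all 6 libraries. The 10 genes at or above 1 FPKM were led by Cxcl14 (45.4 ± 3.9 FPKM, SD, n = 6), a ligand made constitutively in many tissues, and Ccl27a (21.3 ± 2.95 FPKM), known as a skin T cell attractant. Ackr1, a chemokine-binding receptor of venules and red cells, followed at 11.9 ± 7.5 FPKM, and the lymphoid ligand Ccl21b at 5.77 ± 0.874 FPKM. Ccl21a, Ackr3, Ccl27b, Ccl25, Ccl17 and Cxcl12 had sham means between 1.15 and 2.2 FPKM. FPKM is a level per transcript length, so these levels can be ordered, but the range of Ackr1 (2.94 to 21.2 FPKM) overlapped those of Ccl27a and Ccl21b, and the ranges of neighbours from Ccl21a to Cxcl12 overlapped. Ackr1 lies on the same strand as the abundant neuronal gene Cadm3 and overlaps its gene model (Cadm3 was at 51.1 to 61.0 FPKM in sham), so its reads may not be separable from those of Cadm3.

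Of the 31 genes, 20 had their highest mean at 24 h, 6 at 28 d and 5 in sham, counting both arms together. Those with a peak at 28 d were Ccl21b, Cxcr4, Cxcl13, Cxcl5, Cxcl12 and Ccl8. The map of levels by library shows the block of genes that was dark in sham and bright at 24 h. Of the 31 genes, 21 had a sham mean under 1 FPKM and met the rule for the 31 through an injured group alone. Their highest group mean had to lie after injury, so these counts and the block are a description.

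**Figure D1:**
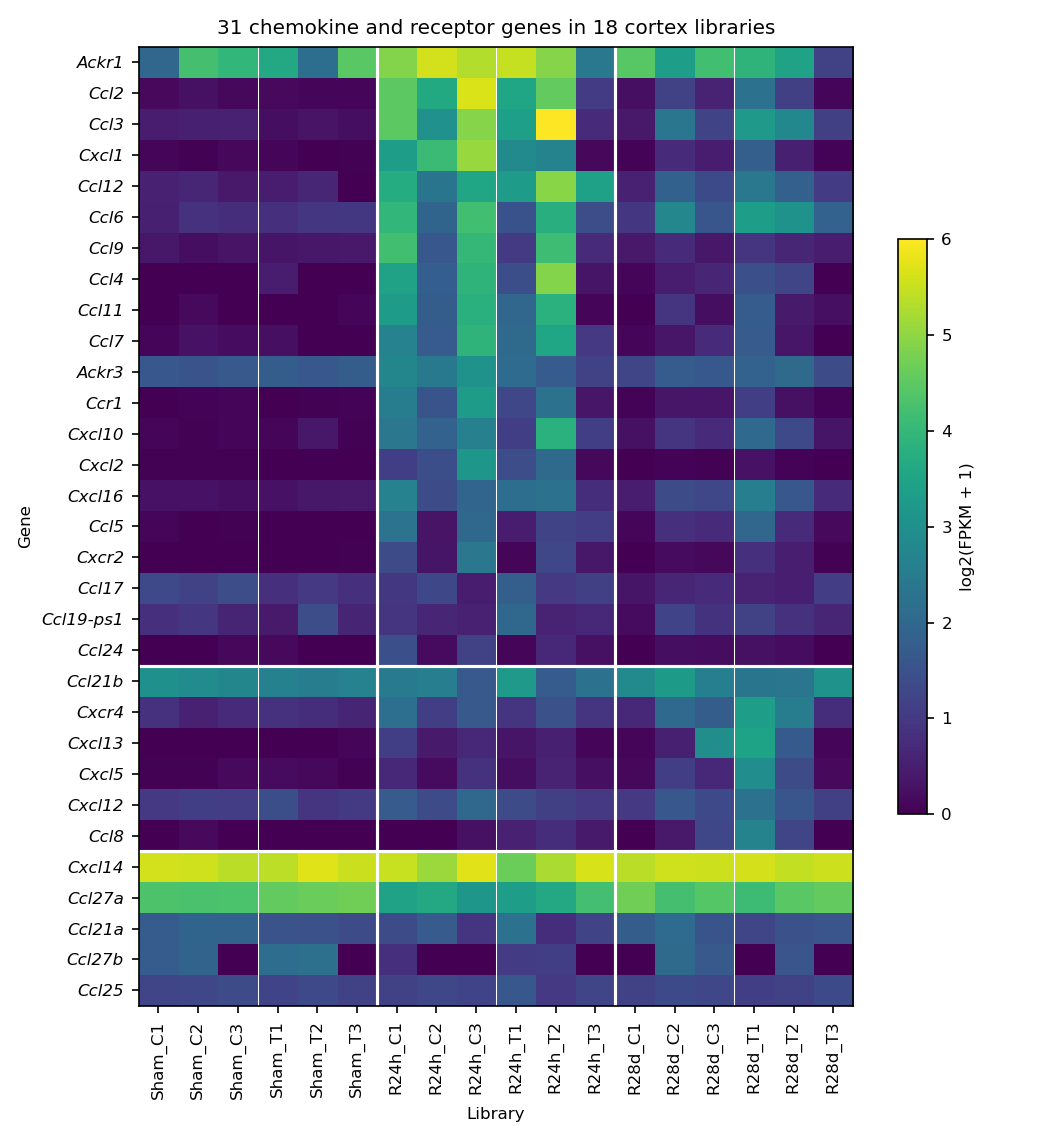
Levels of the 31 genes (rows) in the 18 libraries (columns), as log2(FPKM + 1) by colour. Horizontal white lines part the genes with their highest mean at 24 h (20, top), at 28 d (6, middle) and in sham (5, bottom). R24h_T3, R28d_C1 and R28d_T3 are darker than the other libraries of their groups in most rows of the top block.

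The comparison of 24 h with sham asks which members respond early to ischemia. With both arms together (6 libraries against 6, arm as a term), limma called 16 of 26 tested members higher and 1 lower at an adjusted p under 0.05, against 19.3% higher and 5.38% lower of the 14589 genes tested. The median log2 difference was 1.45 over the 26 members and 0.0969 over all tested genes. A gene was tested if it reached 1 FPKM in 3 libraries of the comparison. All 16 risen members had sham means under 1 FPKM and entered the test through their 24 h libraries alone. They had to be higher at 24 h, so their number and the median over the members are a description. Of the 10 members with a sham mean of at least 1 FPKM, 0 rose and 1, Ccl27a, fell (3 of these 10 had an unadjusted p under 0.05 without passing: Ackr1, Ackr3 and Cxcl12). Values of sham and 24 h libraries did not overlap in 14 tested members that were higher and in 1 that was lower, against 8.19% and 1.93% of all tested genes. The 14 are among the 16 risen members and were tested through 24 h libraries alone, so nothing is read from their share.

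Ligands of Ccr2, the receptor that draws monocytes from blood, were among the members that differed most. Ccl2 (monocyte chemoattractant protein, ENSMUSG00000035385) was at 0.0531 to 0.209 FPKM in sham. In R24h_C it was at 21.7, 11.5 and 49.5 FPKM and in R24h_T at 10.7, 22.6 and 1.06 FPKM. All 6 injured libraries lay above all sham libraries, with R24h_T3 far below the others. The log2 difference was 3.68 (SE 0.53, limma adjusted p = 0.00113), and the mean FPKM was 185 times that of sham. A log2 difference here is on the log2(FPKM + 1) scale, which understates changes of low genes.

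Ccl12, a mouse ligand from the gene cluster of Ccl2 that also binds Ccr2, was at 0 to 0.557 FPKM in sham. It was at 12.1, 4.06 and 10.8 FPKM in R24h_C and at 8.81, 29.8 and 9.9 FPKM in R24h_T (log2 difference 3.10, SE 0.32, limma adjusted p = 0.000239). R24h_T3 stood with the other injured libraries for this gene. Ccl7, a further monocyte attractant, was at 0 to 0.223 FPKM in sham, at 5.29, 2.3 and 14.1 FPKM in R24h_C and at 3.2, 10.5 and 0.986 FPKM in R24h_T, and rose by 2.34 (adjusted p = 0.00283). Ccl8, which shares the gene cluster, reached only 0 to 0.718 FPKM at 24 h, below the level for testing. Bulk cortex was measured, so more cells of a type and more RNA per cell, or fewer and less, cannot be told apart.

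The monocyte and macrophage marker sum was also above sham in each 24 h library. It was 319, 97.1 and 289 FPKM in R24h_C and 174, 190 and 48.2 FPKM in R24h_T. R24h_T3, with the lowest sum at 24 h, also had the lowest Ccl2 and Ccl7, but Ccl12 was lowest in R24h_C2. Of the 10 marker genes, 8 were tested and 8 rose, against 19.3% of all genes tested, and none was at 0 in every library of a group. Msr1, Mrc1, F13a1 and Chil3 were under 1 FPKM in every sham library. They were tested through 24 h libraries alone and had to be higher, so the count is a description. The part of these cells in the rise of the ligands was not tested.

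The neutrophil attractants Cxcl1, Cxcl2, Cxcl3 and Cxcl5 bind Cxcr2. Promoters of the 3 with neighbouring genes are shown because each holds the same 11-letter run. Cxcl10 and Ccl9 were added as members that rose at 24 h and also hold a match to the NF-kappaB consensus. Promoters of risen members without such a match are not shown. They are the 250 bases before the RefSeq start (GRCm38.p6, while the deposited values were made on mm9), read 5′ to 3′ on the strand of the gene, with matches to the NF-kappaB (κB) consensus or to GAAANNGAAA, an interferon-stimulated response element, in capitals. Cxcl3 (chr5:90785851-90786100, plus strand) is shown although it falls under the level for naming and was chosen after its values were seen. The others are Cxcl1 (chr5:90890995-90891244, plus strand), Cxcl2 (chr5:90903649-90903898, plus strand), Cxcl10 (chr5:92348890-92349139, minus strand) and Ccl9 (chr11:83578637-83578886, minus strand).
Cxcl1: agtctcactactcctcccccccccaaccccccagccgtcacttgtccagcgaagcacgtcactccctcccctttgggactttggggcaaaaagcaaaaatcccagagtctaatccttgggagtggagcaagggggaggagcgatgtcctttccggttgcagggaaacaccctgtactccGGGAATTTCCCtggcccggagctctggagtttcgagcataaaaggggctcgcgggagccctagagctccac
Cxcl2: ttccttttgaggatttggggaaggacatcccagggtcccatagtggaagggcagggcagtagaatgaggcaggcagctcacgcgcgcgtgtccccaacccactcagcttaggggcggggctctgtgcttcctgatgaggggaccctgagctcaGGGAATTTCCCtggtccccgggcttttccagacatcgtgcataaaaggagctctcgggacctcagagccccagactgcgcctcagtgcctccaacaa
Cxcl3: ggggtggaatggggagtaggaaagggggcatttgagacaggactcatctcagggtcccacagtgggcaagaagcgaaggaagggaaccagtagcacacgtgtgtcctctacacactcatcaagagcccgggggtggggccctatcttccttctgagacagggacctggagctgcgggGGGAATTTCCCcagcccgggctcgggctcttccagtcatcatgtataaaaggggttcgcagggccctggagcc
Cxcl10: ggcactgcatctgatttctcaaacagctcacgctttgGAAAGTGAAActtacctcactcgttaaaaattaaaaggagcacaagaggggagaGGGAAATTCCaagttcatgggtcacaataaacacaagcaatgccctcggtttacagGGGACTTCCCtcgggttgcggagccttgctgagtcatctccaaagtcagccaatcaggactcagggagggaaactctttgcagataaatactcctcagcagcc
Ccl9: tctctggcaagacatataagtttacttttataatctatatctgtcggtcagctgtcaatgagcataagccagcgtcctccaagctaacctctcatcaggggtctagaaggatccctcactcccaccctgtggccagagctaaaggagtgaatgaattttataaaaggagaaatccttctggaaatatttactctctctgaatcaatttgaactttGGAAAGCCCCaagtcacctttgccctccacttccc
In Cxcl1, Cxcl2 and Cxcl3 the run GGGAATTTCCC holds a κB match on each strand. Its first base lies 71, 97 and 73 bases before the start. Cxcl10 holds 2 κB matches, GGGAAATTCC and GGGACTTCCC, and the element GAAAGTGAAA, and Ccl9 holds GGAAAGCCCC, a match on the opposite strand. On both strands, the κB consensus was found in 3.9% of 32851 promoter windows and the interferon element in 2.98%. Of the 56 members 40 had a window, and 9 of these genes held a κB match (22.5%, against 4.46% of 27025 genes) and 3 the interferon element (7.5%, against 3.46%). Of the 18 members that rose in a 24 h comparison 12 had a window, and 4 of these held a κB match (33.3%). Among the 28 other members with a window 5 held one (17.9%), namely Ackr2, Ccl20, Ccr3, Ccr6 and Cxcl3. Such a match is a description of letters and does not show a binding site.

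Cxcl1 was at 0 to 0.0931 FPKM in sham. It reached 9.36, 16.2 and 32.6 FPKM in R24h_C and was at 6.21, 5.44 and 0.0973 FPKM in R24h_T. Every R24h_C library lay above every R24h_T library, and R24h_T3 was barely above the highest sham value. The log2 difference over both arms was 2.97 (SE 0.52, limma adjusted p = 0.00296). Cxcl2 was at 0 to 0.0295 FPKM in sham, at 1.16, 1.74 and 8.1 FPKM in R24h_C and at 1.69, 3.22 and 0.0967 FPKM in R24h_T, and rose by 1.54 (adjusted p = 0.0118). R24h_C3, the library with high Ttr, held the highest value of both genes. Cxcl3 was listed at 0 in all sham libraries and reached 1.52 FPKM in R24h_C3 and at most 0.242 FPKM elsewhere. Cxcl5, the fourth of these ligands, stayed at 0.138 to 0.827 FPKM at 24 h, against 0.0319 to 0.13 FPKM in sham.

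Cxcr2, the receptor of these ligands on neutrophils, was listed at 0 in all sham libraries but Sham_T3 (0.0198 FPKM). It was at 1.6, 0.264 and 4.25 FPKM in R24h_C and at 0.0794, 1.43 and 0.299 FPKM in R24h_T (log2 difference 0.98, SE 0.31, limma adjusted p = 0.0381). Its call was lost without any 1 of the 6 sham libraries (adjusted p = 0.0538 to 0.0813), and without R24h_C1 or R24h_T2 with the tested genes held fixed (adjusted p = 0.0833 and 0.0875), and it was also lost with no filter (0.0882) and with a replicate block (0.0501). The 10 neutrophil markers summed to 1.97 to 3.41 FPKM in sham, to 42.9, 26.2 and 205 FPKM in R24h_C and to 32.5, 26.3 and 7.76 FPKM in R24h_T. Of these 10 markers 5 were tested and 3 rose (S100a8, S100a9 and Csf3r), against 19.3% of all genes tested, while the precursor enzyme Elane was at 0 in every 24 h library. S100a8 was under 1 FPKM in every sham library and was tested through 24 h libraries alone, so it had to be higher. Both Cxcr2 and the marker sum were highest in R24h_C3. The part of neutrophils in the level of Cxcr2 was not tested.

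A further 5 inflammatory CC ligands, Ccl3, Ccl4, Ccl5, Ccl6 and Ccl9, were all tested and all rose. Ccl3 (macrophage inflammatory protein 1 alpha) was at 0.158 to 0.467 FPKM in sham. It was at 21.7, 7.18 and 29.0 FPKM in R24h_C and at 9.48, 63.3 and 0.666 FPKM in R24h_T, with no overlap with sham (log2 difference 3.38, SE 0.66, limma adjusted p = 0.00497). Ccl4, its neighbour in the genome, was listed at 0 in all sham libraries but Sham_T1 (0.369 FPKM). It reached 9.98, 2.45 and 13.9 FPKM in R24h_C and was at 1.73, 28.5 and 0.276 FPKM in R24h_T, so R24h_T3 overlapped sham (log2 difference 2.56, adjusted p = 0.0138).

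Ccl6 and Ccl9, rodent ligands of Ccr1, are neighbours in the same cluster. Ccl6 was at 0.438 to 0.952 FPKM in sham, at 14.7, 2.81 and 17.2 FPKM in R24h_C and at 1.84, 12.8 and 1.68 FPKM in R24h_T (log2 difference 1.99, limma adjusted p = 0.0118). Ccl9 was at 0.16 to 0.328 FPKM in sham, at 17.2, 2.1 and 15.0 FPKM in R24h_C and at 1.03, 16.7 and 0.671 FPKM in R24h_T (2.28, adjusted p = 0.0175). For both genes R24h_C1, R24h_C3 and R24h_T2 were high and R24h_C2, R24h_T1 and R24h_T3 low, so the libraries of each arm fell on both sides. Ccl5 (RANTES), a T cell and monocyte attractant, was at 0 to 0.059 FPKM in sham, at 3.86, 0.237 and 3.04 FPKM in R24h_C and at 0.378, 1.36 and 1.14 FPKM in R24h_T (1.21, adjusted p = 0.0118).

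Ccr1, which is carried by neutrophils and monocytes, was at 0 to 0.0616 FPKM in sham. Its 24 h values were 4.82, 1.94 and 8.86 FPKM in R24h_C and 1.43, 3.71 and 0.279 FPKM in R24h_T, all above sham (log2 difference 1.84, SE 0.35, limma adjusted p = 0.00423). Ccr2, the receptor of Ccl2, Ccl7 and Ccl12, reached at most 0.578 FPKM in any library and was not tested.

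Among ligands that interferon induces, Cxcl10, a ligand of the T cell receptor Cxcr3, was at 0.0264 to 0.299 FPKM in sham. In R24h_C it was at 4.22, 2.7 and 5.15 FPKM and in R24h_T at 1.17, 13.2 and 1.15 FPKM, all above sham (log2 difference 2.03, SE 0.39, limma adjusted p = 0.00439). R24h_T2 held the highest value. The other ligands of Cxcr3 stayed low, with Cxcl9 at 1.53 FPKM in R24h_T2 and at most 0.467 FPKM elsewhere, and Cxcl11 at 0.125 FPKM or less. Cxcr3 itself was at 0 to 0.171 FPKM at 24 h. Markers of T and NK cells summed to 1.62 to 3.74 FPKM in sham and 0.64 to 4.85 FPKM at 24 h. Ncr1 was at 0 in every library of both. Most of the sham sum was Cd4 (mean 2.07 FPKM, against 0.904 FPKM at 24 h), so the sum does not stand for the whole list. Cd3g, Cd8a and Nkg7 were at 0 in every sham library and reached at most 0.146, 0.167 and 0.451 FPKM at 24 h. The part of T and NK cells was not tested.

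Cxcl16, which exists as a membrane-bound and a shed ligand of Cxcr6, was at 0.164 to 0.323 FPKM in sham. It was at 5.32, 1.57 and 2.89 FPKM in R24h_C and at 3.5, 3.69 and 0.716 FPKM in R24h_T (log2 difference 1.55, SE 0.26, limma adjusted p = 0.00239). All injured libraries lay above sham. Its gene model overlaps Zmynd15 on the opposite strand (0.0941 to 0.661 FPKM at 24 h), and Cxcl10 overlaps Art3 (0.414 to 0.552 FPKM at 24 h). The libraries were stranded, but whether strand was used in quantification is not given in the sources used here.

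Ccl11 (eotaxin), an eosinophil attractant, was listed at 0 in 4 of 6 sham libraries and at 0.11 FPKM or less in the others. It was at 8.89, 2.39 and 13.1 FPKM in R24h_C and at 2.98, 13.4 and 0.0823 FPKM in R24h_T, where R24h_T3 overlapped sham (log2 difference 2.43, SE 0.52, limma adjusted p = 0.0077). Ccl24, another eotaxin, exceeded 1 FPKM in R24h_C1 (1.77) and R24h_C3 (1.28) and was at 0.0701 to 0.59 FPKM in the other 24 h libraries, so it was not tested. Ccl17, a ligand of Ccr4, was at 0.753 to 1.69 FPKM in sham and 0.392 to 2.52 FPKM at 24 h (0.03, adjusted p = 0.936). Ccl19-ps1, a pseudogene, was at 0.361 to 1.68 FPKM in sham and 0.462 to 3.1 FPKM at 24 h.

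The axis of Cxcl12, a ligand of endothelium, meninges and neurons that holds Cxcr4-bearing cells in place, differed less. Cxcr4 was at 0.455 to 0.818 FPKM in sham, at 3.61, 1.15 and 2.22 FPKM in R24h_C and at 0.896, 1.79 and 0.868 FPKM in R24h_T (log2 difference 0.65, SE 0.19, limma adjusted p = 0.0282). That call was lost without Sham_C1, Sham_C2, Sham_C3, Sham_T3, R24h_C3 or R24h_T2 (adjusted p = 0.0510 to 0.0685), with no filter (0.0686) and with all 18 libraries in 1 fit (0.168). Cxcl12 was at 0.885 to 1.71 FPKM in sham and 0.994 to 3.01 FPKM at 24 h (0.35, adjusted p = 0.103). Ackr3, the scavenging receptor of Cxcl12, was at 1.97 to 2.42 FPKM in sham, at 5.71, 4.41 and 7.31 FPKM in R24h_C and at 3.3, 2.38 and 1.26 FPKM in R24h_T (0.54, adjusted p = 0.0885). The R24h_C libraries of Ackr3 lay above all sham libraries, and the R24h_T libraries on both sides of them. Ackr1 was at 2.94 to 21.2 FPKM in sham and at 28.8, 47.0, 38.9, 43.8, 29.3 and 4.26 FPKM at 24 h, where R24h_T3 alone fell within sham (1.35, adjusted p = 0.104). Without R24h_T3 Ackr1 (1.83, adjusted p = 0.0103), Ackr3 (0.72, adjusted p = 0.0089) and Cxcl12 (0.42, adjusted p = 0.044) passed, and Cxcl12 also passed without Sham_T1 (0.45, adjusted p = 0.0376). The 8 endothelial markers summed to 7.51 to 9.24 FPKM in sham and to 15.6 (R24h_T3) to 57.0 FPKM at 24 h, and 7 of 8 rose, against 19.3% of all genes tested. Flt1, Tie1 and Tek were under 1 FPKM in every sham library and were tested through 24 h libraries alone, so they had to be higher. The 9 meningeal and blood markers summed to 9.13 to 58.3 FPKM in sham and to 34.0 to 162 FPKM at 24 h, with the highest sum in R24h_T3, and 5 of 9 rose, against the same share of all genes. Their part and that of endothelial RNA in these values was not tested.

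The member that fell was Ccl27a (ENSMUSG00000073888). It was at 19.1, 18.4 and 18.8 FPKM in Sham_C and at 22.6, 24.0 and 25.2 FPKM in Sham_T. In R24h_C it was at 9.95, 11.4 and 8.13 FPKM and in R24h_T at 9.31, 11.3 and 17.4 FPKM, all below sham, with R24h_T3 the nearest. The log2 difference was -0.89 (SE 0.13, limma adjusted p = 0.00106). Ccl27b, its near-identical copy, was listed at 0 in 2 sham and 3 of the 24 h libraries and at up to 3.62 FPKM in others (-0.84, adjusted p = 0.169). It passed as lower with a replicate block (adjusted p = 0.0485) and without Sham_T3 (-1.17, adjusted p = 0.0418). Reads may have been split between the copies, and both values are uncertain. Ccl27a also overlaps Il11ra1 on the opposite strand, which was at 3.61 to 4.91 FPKM in sham and 3.5 to 4.84 FPKM at 24 h.

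Other ligands of healthy tissue did not pass. Cxcl14 was at 40.9 to 51.3 FPKM in sham and 24.2 to 52.4 FPKM at 24 h (log2 difference -0.22, limma adjusted p = 0.328). Ccl25, a ligand of gut-homing T cells, was at 1.26 to 1.64 and 0.984 to 2.09 FPKM (-0.03, adjusted p = 0.869). The near-identical lymphoid ligands Ccl21a (-0.28, adjusted p = 0.369) and Ccl21b (-0.41, adjusted p = 0.202) did not pass, and reads may have been split between them too. Without R24h_T1, which held their highest 24 h values (3.83 and 8.53 FPKM), both passed as lower (-0.50, adjusted p = 0.0252, and -0.62, adjusted p = 0.0189).

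The 17 calls over both arms became 15 to 20 when each library was left out, and 15 of the 17 members were called each time while the tested genes were held fixed, all but Cxcr2 and Cxcr4. Leaving out Sham_T1, Sham_T2 and R24h_C3, the libraries of this comparison with Ttr above 100 FPKM, gave 8 calls, also with the tested genes held fixed, all of them among the 17. Ccl2, Ccl7, Ccl12, Cxcl1, Cxcl10, Cxcl16, Ccr1 and Ccl27a were then called. Ccl3 (log2 difference 3.22, limma adjusted p = 0.0564), Ccl4, Ccl5, Ccl6, Ccl9, Ccl11, Cxcl2, Cxcr2 and Cxcr4 were not, with log2 differences between 0.74 and 3.22.

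**Figure D2:**
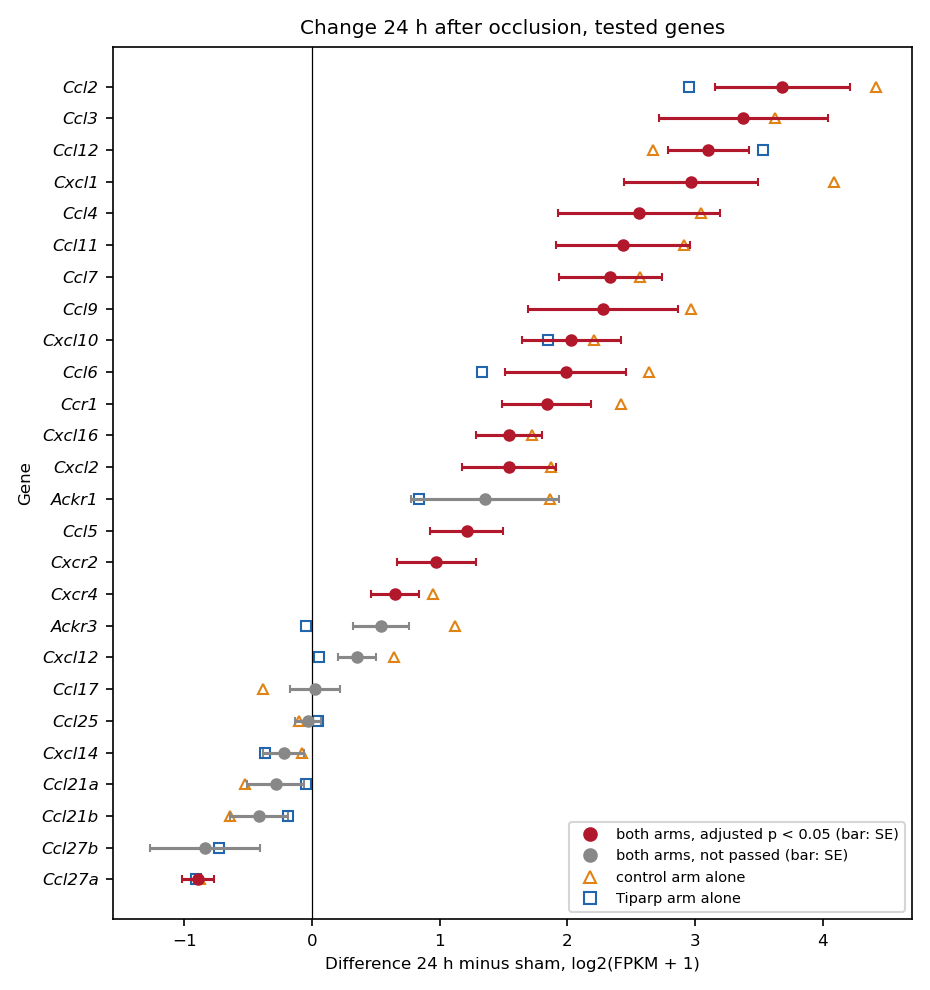
Difference between 24 h and sham on the log2(FPKM + 1) scale (x axis) for the 26 tested members (y axis); circles give both arms together with the SE as a bar, red where the adjusted p was under 0.05, and open symbols each arm alone where tested. Ccl2 has the largest difference over both arms (3.68), and Ccl27a lies near -0.9 in both arms.

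Each arm was also set against its own sham. In the control arm 16 of 23 tested members were higher and 1 was lower, against 19.8% and 4.24% of all genes tested. The median log2 difference was 1.88 over the members and 0.127 over all tested genes, and after median-ratio scaling, which moved the latter to -0.01, 16 members were called in place of 17. All of the higher members but Ackr3 and Cxcl12 were under 1 FPKM in sham and were tested through the R24h_C libraries alone, so they had to be higher, and their count and median are a description. Of the 16 members that were higher, Cxcl1 (log2 difference 4.09, SE 0.39, limma adjusted p = 0.00297), Ccl2 (4.41, SE 0.46, adjusted p = 0.00384) and Cxcl10 (2.21, SE 0.19, adjusted p = 0.00229) had the smallest p. Ackr3 (1.12, SE 0.16, adjusted p = 0.00824) and Cxcl12 (0.64, SE 0.16, adjusted p = 0.0337) were called in this arm and not over both arms. The call of Cxcl12 was lost with no filter (0.0863), with a replicate block (0.0591), with all 18 libraries in 1 fit (0.0666) and without any 1 library of the arm but R24h_C2 (0.0525 to 0.106 with the tested genes held fixed). Ackr3 passed over both arms in the fit of all 18 libraries (adjusted p = 0.0186). With no filter Ccl6, Ccl7, Ccl9, Cxcl2 and Cxcr4 also lost their calls in the control arm (adjusted p = 0.0504 to 0.11), and Cxcr4 did so with all 18 libraries in 1 fit (0.163) and with scaling (0.0609), and Cxcl2 with a replicate block (0.0523). With the tested genes held fixed, the control arm had 9 calls without Sham_C1, Sham_C3 or R24h_C1, 7 without Sham_C2, 14 without R24h_C3 and 19 without R24h_C2. Ackr3, Ccl12, Ccl2, Ccl27a, Ccl3, Cxcl1 and Cxcl10 were called each time.

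In the Tiparp arm 13 members were tested, since R24h_T3 kept most sham-low genes under 1 FPKM. Ccl12 was the 1 called (log2 difference 3.53, SE 0.42, limma adjusted p = 0.0375), against 0.133% of all genes called higher, and 5 had an unadjusted p under 0.05. That call was lost without any 1 of the sham libraries or without R24h_T1. Ccl2 differed by 2.95 (adjusted p = 0.184) and Ccl27a by -0.91 (adjusted p = 0.14). Ccl12, Ccl2, Ccl6 and Cxcl10 were under 1 FPKM in every Sham_T library and were tested through the R24h_T libraries alone. They had to be higher, so the call of Ccl12 and the count at an unadjusted p under 0.05 are a description. Without R24h_T3 and with the tested genes held fixed, Ccl2 (3.96, adjusted p = 0.00278), Ccl12 and Ccl27a (-1.15, adjusted p = 0.00872) were called.

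The question whether the hairpin against Tiparp goes with another response has its test in the difference between the arms. At 24 h limma called 0 of 25 members between R24h_T and R24h_C (0% of all genes called), and 3 had an unadjusted p under 0.05. Cxcl1 was lower in the Tiparp arm by 2.29 on the log2 scale (log2 difference -2.29, SE 0.74, adjusted p = 0.668), Ackr3 by 1.06 (-1.06, SE 0.27, adjusted p = 0.668) and Cxcl12 by 0.52 (-0.52, SE 0.20, adjusted p = 0.668). Values of the arms did not overlap for Cxcl1 and Ackr3, as for 8.78% of all tested genes in that direction. The difference of the 24 h responses was not called in any of 26 members (0% of all genes), with 4 at an unadjusted p under 0.05. It was -2.25 for Cxcl1 (SE 0.86, adjusted p = 0.415), -1.17 for Ackr3 (SE 0.30, adjusted p = 0.415), -0.59 for Cxcl12 (SE 0.26, adjusted p = 0.448) and 0.82 for Ccl17 (SE 0.33, adjusted p = 0.421). The SE of these differences was 0.21 (Ccl25) to 1.37 (Ccl3), so equal responses were not shown.

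Between the sham arms 0 of 10 tested members were called, against 0.21% of all genes, and 4 had an unadjusted p under 0.05. Ccl27a was higher in each Sham_T library than in each Sham_C library (0.33, SE 0.06, limma adjusted p = 0.125). Ccl17 (-0.42, adjusted p = 0.19), Ccl21a (-0.39, adjusted p = 0.174) and Ccl21b (-0.28, adjusted p = 0.277) were lower in each. The sham arms did not overlap in that way in 10.6% (higher) and 8.85% (lower) of all tested genes. At 28 d 0 of 18 members were called between the arms (0% of all genes), and 0 had an unadjusted p under 0.05.

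**Figure D3:**
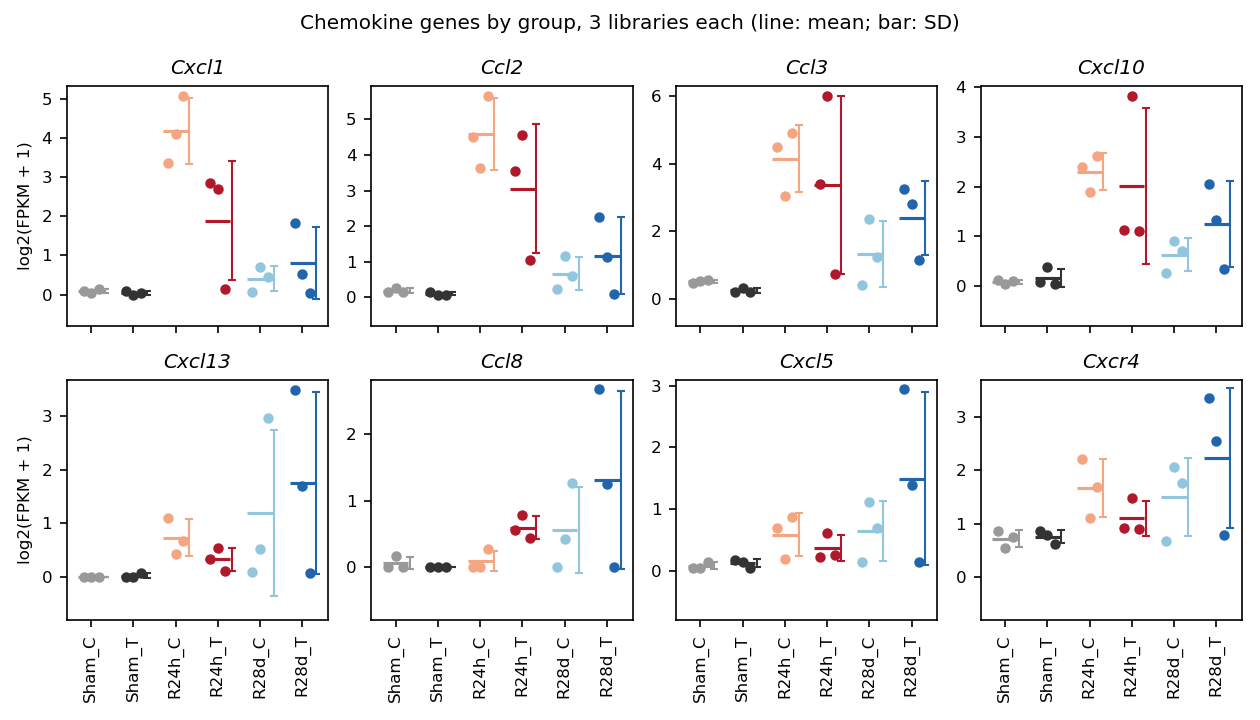
Level of 8 members as log2(FPKM + 1) (y axis) in the 6 groups (x axis), 3 libraries each as points, with the mean as a line and the SD as a bar. Cxcl1, Ccl2, Ccl3 and Cxcl10 (top) are highest at 24 h, while Cxcl13, Ccl8, Cxcl5 and Cxcr4 (bottom) are highest in single 28 d libraries, and the SD is wide where 1 library of a group is low.

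The comparison of 28 d with sham asks which members remain raised. limma called 0 of 20 tested members over both arms (0.00702% of all genes), and 11 had an unadjusted p under 0.05. The median log2 difference was 0.207 over the members and 0.0367 over all tested genes. Ccl2, Ccl3, Ccl6, Ccl8, Ccl12, Cxcl5, Cxcl13, Cxcl16 and Cxcr4 were under 1 FPKM in every sham library. They were tested through 28 d libraries alone and had to be higher. The median and the count at an unadjusted p under 0.05 are therefore a description. Members that differed most were spread over libraries rather than groups. Cxcl13, the ligand that brings B cells into lymphoid follicles, was listed at 0 in 5 of 6 sham libraries, at 0.0737, 0.442 and 6.81 FPKM in R28d_C and at 10.2, 2.27 and 0.057 FPKM in R28d_T (1.47, SE 0.56, adjusted p = 0.214). Its value exceeded all sham values in every 28 d library, by little in R28d_C1 and R28d_T3. The 5 B cell markers summed to 0.139 to 0.354 FPKM in sham and were highest in R28d_T1 (4.21 FPKM) and R28d_C3 (2.3 FPKM), the 2 libraries with the most Cxcl13. Among them Ms4a1 was at 0 in every sham and 24 h library, but not in every library of either 28 d group. The part of B cells was not tested.

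Ccl8, which shares the gene cluster of Ccl2 and was low at 24 h, was at 0, 0.333 and 1.41 FPKM in R28d_C and at 5.4, 1.38 and 0 FPKM in R28d_T (0.91, SE 0.38, limma adjusted p = 0.248). Cxcl5 was at 0.102, 1.15 and 0.609 FPKM in R28d_C and at 6.69, 1.62 and 0.103 FPKM in R28d_T (0.97, SE 0.38, adjusted p = 0.222). Cxcr4 was at 0.593, 3.18 and 2.39 FPKM in R28d_C and at 9.15, 4.82 and 0.72 FPKM in R28d_T (1.13, SE 0.38, adjusted p = 0.171). In these 3 genes R28d_T1 was the highest 28 d library, and R28d_C1 and R28d_T3 lay within the sham range.

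Several members called at 24 h had values above sham in most 28 d libraries without passing. Ccl6 was at 0.92, 5.83 and 2.07 FPKM in R28d_C and at 9.37, 7.49 and 2.73 FPKM in R28d_T (1.47, SE 0.32, limma adjusted p = 0.129). Ccl3 was at 0.328, 4.11 and 1.35 FPKM in R28d_C and at 8.46, 5.97 and 1.21 FPKM in R28d_T (1.48, SE 0.40, adjusted p = 0.137). Cxcl16 was at 0.402, 1.59 and 1.41 FPKM in R28d_C and at 4.91, 2.12 and 0.682 FPKM in R28d_T (1.03, SE 0.26, adjusted p = 0.129). Cxcl16 and Cxcl13 were the 2 tested members whose 28 d and sham values did not overlap, against 1.19% of all tested genes. Both were under 1 FPKM in every sham library and were tested through 28 d libraries alone, so nothing is read from that share. Ccl12 differed by 1.07 (adjusted p = 0.129) and Ccl2 by 0.78 (adjusted p = 0.218).

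Leaving out 1 low library changed this count. Without R28d_T3, 8 members were called over both arms, Ccl2, Ccl3, Ccl6, Ccl12, Cxcl5, Cxcl16 and Cxcr4 as higher and Ccl17 as lower, and without R28d_C1 4 were called (Ccl3, Ccl6, Ccl12 and Cxcl16). Ccl6 was then at 1.62 (limma adjusted p = 0.0216) and 1.70 (adjusted p = 0.0344). In the arms taken alone 0 of 10 members passed in the control arm (0.0522% of all genes; 1 at an unadjusted p under 0.05, Ccl17 at -0.73) and 0 of 12 in the Tiparp arm (0.0148%; 3 at an unadjusted p under 0.05). In the Tiparp arm, 3 members, Ccl3 (2.77), Ccl6 (2.33) and Ccl12 (1.76), were called without R28d_T3 when the tested genes were held fixed. All members called as higher with a library left out were under 1 FPKM in every sham library. They were tested through injured libraries alone and had to be higher. The shares of all genes called with a library left out are not given, so nothing is read from those counts.

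The course from 24 h to 28 d was compared over both arms. These comparisons share libraries with those above and are not independent of them. Of 31 tested members 2 fell and 1 rose, against 1.5% and 1.47% of all genes, and 14 had an unadjusted p under 0.05. Ccl2 fell from 19.5 ± 16.7 to 1.17 ± 1.38 FPKM (SD, n = 6; log2 difference -2.91, SE 0.64, limma adjusted p = 0.0379). Ccl12 fell from 12.6 ± 8.89 to 2.11 ± 1.37 FPKM (-2.03, SE 0.36, adjusted p = 0.0254). Ccl27a rose from 11.2 ± 3.25 to 20.6 ± 3.14 FPKM (0.84, SE 0.16, adjusted p = 0.0275), and its 28 d libraries, at 16.5 to 25.1 FPKM, lay in or below the sham range of 18.4 to 25.2 FPKM.

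Among members just short of the threshold were Ccl7 (-1.93, limma adjusted p = 0.0521), Cxcl1 (-2.43, adjusted p = 0.0545), Cxcl2 (-1.49, adjusted p = 0.0553), Ccr1 (-1.50, adjusted p = 0.0596) and Ccl9 (-2.03, adjusted p = 0.0769). At 28 d Cxcl2 and Ccl9 were under 1 FPKM in every library, and Ccl7, Cxcl1 and Ccr1 in all but R28d_T1. They were tested because of their 24 h libraries and had to be lower. These values, and their part in the count at an unadjusted p under 0.05 above, are a description. Cxcl2 was at 0 to 0.22 FPKM in the 28 d libraries. Ccl9 was at 0.298 to 0.899 FPKM there, while its neighbour Ccl6 was at 0.92 to 9.37 FPKM (-0.52, adjusted p = 0.615). Without R24h_T3 14 members were called, among them Cxcl1 (-2.97, adjusted p = 0.00333), Ccl3, Ccl4 and Cxcl10, and without R28d_T1 6. Without R24h_C1, R24h_T2, any R28d_C library, R28d_T2 or R28d_T3 none was called, and without R24h_T1 1. The shares of all genes called in these fits are not given, so nothing is read from these counts.

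Of the 31 members, 21 had a sham mean under 1 FPKM, and the number of these at 1 FPKM or more was counted per library. It was 0 in 5 sham libraries and 1 in Sham_T2 (the pseudogene Ccl19-ps1). The 21 were chosen for a low sham mean and a mean of 1 FPKM or more in another group. Low counts in sham and higher ones after injury were set by that choice and are a description. In R24h_C the number was 18, 14 and 17 and in R24h_T 14, 16 and 5. At 28 d it was 0, 8 and 7 in R28d_C and 17, 11 and 3 in R28d_T. R28d_T1 held the highest 28 d value of 20 of the 21 genes, whereas at 24 h the highest value fell to R24h_C3 for 8, R24h_T2 for 6, R24h_C1 for 6 and R24h_T1 for 1. R28d_T1 also had the highest monocyte and macrophage sum (748 FPKM) and the highest sums of microglia (221 FPKM) and astrocyte (1453 FPKM) markers. Most of the 748 FPKM came from Lyz2 (597 FPKM) and Cd68 (127 FPKM), so the sum does not stand for the whole list. Lyz2, Cd68, Ms4a7, Ly6c2 and Fn1 were higher in R28d_T1 than in R24h_C3, and Cd14, Msr1, Mrc1, F13a1 and Chil3 were lower. The part of these cell types in the counts was not tested.

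**Figure D4:**
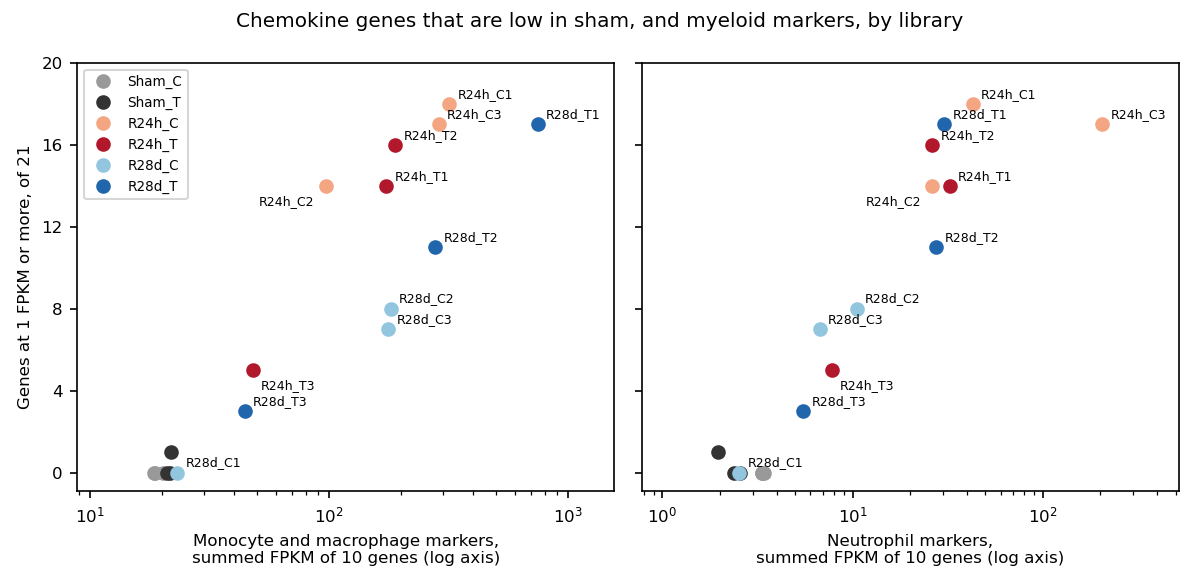
Number of the 21 sham-low members at 1 FPKM or more (y axis) against the summed FPKM of 10 monocyte and macrophage markers (left) and 10 neutrophil markers (right, both log axes) in each of the 18 libraries, coloured by group. R24h_T3, R28d_T3 and R28d_C1 lie nearest to the sham libraries, and R28d_T1, with the highest monocyte and macrophage sum, has as many as R24h_C3 (17). Lyz2 alone gave 597 FPKM of the sum in R28d_T1. The 21 members were chosen as low in sham, so their low numbers there were set by that choice.

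The 25 members whose group means all stayed under 1 FPKM included most lymphocyte receptors. Ccr3, Ccr6, Ccr8, Ccr9, Cxcr5 and the ligands Ccl20 and Cxcl15 did not exceed 0.104 FPKM in any library. Ccr7, the lymph node homing receptor, was at 0.737 FPKM in R28d_T1 and at 0.349 FPKM or less elsewhere, and Cxcr3 at 0.603 FPKM in R28d_T1. The lymphoid ligand Ccl19 was at 0.976 FPKM in R24h_C1, 1.0 FPKM in R24h_T1 and 1.05 FPKM in R28d_T1. Ccl28, a mucosal ligand, had means of 0.761, 0.752 and 0.736 FPKM in sham, at 24 h and at 28 d. Cxcl17 was at 0.675, 0.31 and 0.353 FPKM in R24h_C and at 0.921, 0.155 and 0 FPKM in R24h_T, against 0.103 FPKM or less at 28 d.

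Several called members are neighbours on a chromosome, by gene order in RefSeq. Ccl2, Ccl7, Ccl11, Ccl12 and Ccl8 follow each other, and the first 4 were called at 24 h while Ccl8 was not tested. Ccl5, Ccl9, Ccl6, Ccl3 and Ccl4 form another run, in which all 5 were called. Within this run the ratio of mean FPKM at 28 d to that at 24 h was 0.557 for Ccl6, 0.518 for Ccl5, 0.163 for Ccl3, 0.0738 for Ccl4 and 0.0597 for Ccl9, and these ratios were not tested against each other. In the run of Ccr1, Ccr1l1, Ccr3 and Ccr2, Ccr1 was called, and the other 3 were not tested. The called members of these runs were under 1 FPKM in every sham library and were tested through 24 h libraries alone. They had to be higher, so the counts by run are a description (19.3% of all genes tested were called higher). Cxcl3, Cxcl15, Cxcl1 and Cxcl2 form a further run, and the promoters of Cxcl1, Cxcl2 and Cxcl3 are shown above.

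Chemokine genes with other names were followed as a list of 15, of which 11 were measured and 7 tested. At 24 h over both arms 3 rose and 1 fell, against 19.3% and 5.38% of all genes tested. Pf4, a platelet chemokine, was at 0.165 to 0.255 FPKM in sham, at 7.32, 2.88 and 13 FPKM in R24h_C and at 1.93, 2.64 and 1.3 FPKM in R24h_T (log2 difference 1.94, limma adjusted p = 0.00199). Gpr35 (1.33, adjusted p = 0.00944) and Cmklr1 (0.85, adjusted p = 0.00135), a receptor of chemerin, rose, and Pitpnm3 fell by 0.50 (adjusted p = 0.0418). The neuronal ligand Cx3cl1 was at 102 to 152 FPKM in some libraries of 5 groups and at 11.2 to 32.8 FPKM in the others (-0.79, adjusted p = 0.481), and its microglial receptor Cx3cr1 was also split, between 1.29 to 3.98 FPKM and 8.58 to 18 FPKM (-0.28, adjusted p = 0.713). Among 23 tested genes of signalling below chemokine receptors 13 rose and 0 fell, against the same shares of all genes (median log2 difference 0.34). Pf4 and Gpr35 in the first list, and Dock2, Vav1, Pik3r5 and Fgr in the second, were under 1 FPKM in every sham library. They were tested through 24 h libraries alone and had to be higher, so the counts of both lists are a description. Rac2, the leukocyte GTPase, rose by 1.55 (adjusted p = 0.000178) and Dock2, which activates Rac in leukocytes, by 0.60 (adjusted p = 0.0037). Several of these are expressed in the same myeloid cells as the markers above.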

How the data were processed

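Poly(A) RNA of 18 cortex libraries was sequenced from both ends, with strand marked, per the labels' protocols. The authors deposited FPKM values per gene, made with HISAT and StringTie on build mm9, with edgeR also named, per the submitters' processing notes (no versions given). Each of the 18 columns was matched to its sample by title, and 0 columns of other samples were present. Where a symbol occurred more than once (62 symbols), the entry with the highest mean was used.

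Values were tested as log2(FPKM + 1), two-sided, by limma 3.58.1 in R 4.3.3 (trend and empirical Bayes), on the libraries of the groups compared and over all genes at 1 FPKM or more in at least 3 of them. Benjamini-Hochberg adjustment covered all tested genes, with a threshold of 0.05. The code was tested on simulated data. The rule for named genes was a mean of at least 1 FPKM in at least 1 group, and outside the members only genes of the written lists were named. Members, lists and rules were chosen with earlier results of these data known. A gene that meets the rule for members and a gene of a written list are not reported here and are in no count of members or lists, though the fits held all genes.

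Replicate numbers in the labels did not pair the libraries: deviations from group means of same-numbered libraries correlated at -0.44 to 0.156. The alternatives tried were no filter, a pseudocount of 0.1, a replicate block, median-ratio scaling, 1 fit over all 18 libraries, each library left out, and leaving out libraries with Ttr above 100 FPKM. Leaving libraries out with the tested genes held fixed was added after seeing the data. Overlapping gene models came from GENCODE vM21, which matched all 56 members by identifier but is of another build. Promoters and gene order came from RefSeq. Figures used matplotlib 3.10.9 under Python 3.11.15.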

Additional observations from a re-analysis of the deposited data

How the results depend on the processing

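Of the counts of members called, those for the arms at sham, 24 h and 28 d, the difference of the 24 h responses and 28 d against sham in the control arm were 0 under every alternative that was run. For 24 h against sham over both arms the 17 calls stayed 17 in number with another pseudocount, no filter, scaling, a replicate block or all libraries in 1 fit; leaving libraries out gave 15 to 20 for 1 library, and 8 without the libraries with Ttr above 100 FPKM (8 with the tested genes held fixed). In the control arm 17 became 0 to 9 when 1 library was left out and the filter applied again (only 9 members can then be tested without an R24h_C library, and all 23 without a Sham_C library), 7 to 19 with the tested genes held fixed, and 2 without the library with high Ttr (14 with the tested genes held fixed), and 12 with no filter. The 1 call in the Tiparp arm became 0 with no filter and without the libraries with high Ttr (0 with the tested genes held fixed), 2 with all 18 libraries in 1 fit, and 0 to 1 (0 to 3 with the tested genes held fixed) without 1 library. At 28 d against sham the 0 calls became 0 to 8 over both arms (4 without R28d_C1, 8 without R28d_T3, also with the tested genes held fixed), and 0 to 3 in the Tiparp arm with the tested genes held fixed. For 28 d against 24 h the 3 calls became 5 with a pseudocount of 0.1, 0 with no filter, 6 with median-ratio scaling, 12 with all 18 libraries in 1 fit, 0 without the libraries with high Ttr (0 with the tested genes held fixed) and 0 to 14 without 1 library. With the replicate number as a block, as an alternative in which same-numbered libraries share only a number, this count was 0, the count over both arms at 24 h was 17, the control arm had 16, the Tiparp arm 1, and the other comparisons 0. Where a count moved, the cause was not tested unless named. The shares of all genes called are not given for the alternatives, so no moved count is read as a result about the members. For single members 4790 values kept direction and side of the threshold, 96 passed and 203 no longer passed under an alternative, and 0 were reversed. FPKM give no read totals, so the sampling error of values under 1 FPKM is unknown.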
